A study of Arabidopsis thaliana with 3 samples.

Results

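Of the 10812 chromatin sites marked by the DEK2-YFP fusion protein in both immunoprecipitates, 308 had their summit inside a gene of the class lncRNA, the annotated long non-coding RNAs. These 308 sites are described here. They were chosen by position: a peak of replicate 1 counted as shared when it overlapped a peak of replicate 2 by at least 50% of the shorter peak, and its replicate 1 summit had to lie inside an lncRNA gene of the reference gene table. They made up 2.85% of all shared peaks (95% Wilson interval 2.55 to 3.18) and lay in 335 of 3480 lncRNA genes, since 29 peaks fell where lncRNA genes overlap each other. They were split into 160 sites whose summit also lay within 500 bp of a protein-coding gene, or inside one, and 148 that lay farther away.

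Long non-coding RNA genes are transcribed into RNAs without a long reading frame. Some are known to act at the gene beside them, as the antisense RNA COOLAIR does at the flowering repressor gene FLC, and some act elsewhere, as IPS1 does by sequestering a microRNA of phosphate starvation. DEK proteins are chromatin proteins found in plants and animals, and the title of the series describes Arabidopsis DEK2 as a reader of histone marks with a part in immunity.

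The material was whole Arabidopsis thaliana seedlings at 14 days, of dek2-1 mutants carrying pDEK2::DEK2-YFP, a fusion gene driven by the promoter of DEK2 itself, and chromatin was recovered with an antibody against GFP, which also binds YFP. The group holds 2 immunoprecipitates; values of the 1 input sample were not analysed here. The sample list holds no precipitate from plants lacking the fusion. A peak therefore marks enrichment relative to a modelled background and not to a mock precipitation. The labels do not say whether the replicates came from separately grown plants, so their spread can be technical, and whole seedlings pool all cell types.

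Replicate 1 held 25742 peaks with a median width of 465 bp and replicate 2 held 13307 with a median width of 259 bp. The number of reads was not given, but the list of replicate 1 reached down to a fold enrichment of 1.20 and that of replicate 2 to 1.38, so numbers of peaks are not comparable between them. The fold enrichment is the authors' own value, the ratio of signal at the summit to the modelled background. Sites of the same 2 samples are not replicates, so shares and densities are given with intervals that cover counting error only, and no test was run. Peak coordinates are TAIR10, counted from 1. Strand and exons of the lncRNA genes were not used here, so sense and antisense, or exon and intron, cannot be told apart.

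The strongest site lay inside AT2G23040, an lncRNA gene of 1500 bp. When the shared peaks were ordered by the worse of their ranks of fold enrichment in the replicates, this peak came first of all 10812, ahead of every site at a protein-coding gene. It lay on chromosome 2 from 9809125 to 9810211, with a fold of 3.51 in replicate 1 and 4.64 in replicate 2. Both summits were inside the gene, the first 253 bp from its nearer end. The nearest protein-coding gene, 689 bp from the summit, was NPY4 (AT2G23050), of a family that acts in auxin-dependent organ formation, and the gene on the other side, SNRK2.9 (AT2G23030), a protein kinase gene, was 3105 bp away. The next of the 308 sites in the same order was number 37, and the next over 500 bp from a protein-coding gene was number 207.

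Of the other 9 best-ranked sites over 500 bp from a protein-coding gene, 5 fell where lncRNA genes overlap. Among all 148 far sites 26 did (17.6%, 12.3 to 24.5). The first of the 9 was inside AT1G05483 and AT1G05487, on chromosome 1 from 6642786 to 6643723. Its folds were 2.76 and 2.68 in replicates 1 and 2. It lay 798 bp from AT1G19230. A site inside AT4G06805 and AT4G06810, on chromosome 4 from 10180029 to 10180618, had folds of 2.75 and 2.65, and its nearest protein-coding gene, AT4G18425, was 874 bp away. Both replicates placed their summits of these sites in the same lncRNA gene.

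The site in AT5G05765, on chromosome 5 from 15413583 to 15414755, had folds of 2.63 and 3.005, but its replicate 2 summit lay outside that gene. AT1G05373 and AT1G05377 held a site with 2.71 and 2.53, 1125 bp from AT1G18070. AT2G09060 and AT2G09065 held a site with 2.86 and 2.44, 1286 bp from EXPA4 (AT2G39700), an expansin gene of cell wall loosening. Of these 3 sites, the one in AT5G05765 was higher in replicate 2 and the other two were higher in replicate 1.

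AT1G05633, a gene of 205 bp, held a site with folds of 2.51 and 2.41, 680 bp from IGMT4 (AT1G21130), an indole glucosinolate methyltransferase gene. AT5G07115 and AT5G07125 held one with 2.69 and 2.35, 897 bp from AT5G48420. AT2G09315 held one with 2.28 and 2.73, 4222 bp from AT2G41890. The last of the 10, in AT5G08910, had 2.698 and 2.33 and lay 2328 bp from AT5G59350. Its replicate 2 summit was outside the lncRNA gene, which makes 2 of these 10 sites where the replicates placed the summit differently.

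Among the sites within 500 bp of a protein-coding gene, the best lay inside AT1G04763, a gene of 267 bp, and came as number 37 in the order of all shared peaks. It lay on chromosome 1 from 3301921 to 3302634, 224 bp from AT1G10110, with folds of 3.40 and 3.03. AT3G05905, a gene of 3308 bp, held the next on chromosome 3 from 1763648 to 1764642, 123 bp from AT3G05900, with 2.95 and 3.05. It held another site on chromosome 3 from 1760066 to 1761684 with 1.72 and 2.38. The replicate 2 summit of that other site lay outside the gene, 469 bp from the replicate 1 summit. AT3G05905 and AT3G04505 were the 2 lncRNA genes that held more than 1 of the 308 sites.

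Among the remaining best sites of this class, AT3G04745 held a site with 3.02 and 2.59, 391 bp from AT3G24542. AT4G07905 held one with 2.49 and 2.54, 19 bp from the beta-glucosidase gene BGLU9 (AT4G27820). AT1G76878 and AT1G76880, the latter protein-coding, shared a site with 2.47 and 2.51. The site inside both AT1G08387 and the protein-coding gene AT1G61420 had 2.47 in replicate 1 and 3.38 in replicate 2, the widest gap between the replicates in this class of 10.

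AT4G07845 held a site with folds of 2.46 and 2.48, 265 bp from RRP41L (AT4G27490), a gene related to exosome subunits of RNA decay. AT1G51645 held one with 2.59 and 2.43, 268 bp from EXO70G2 (AT1G51640), an exocyst gene. AT2G09295 held one with 2.89 and 2.42, 367 bp from MIZ1 (AT2G41660), a gene needed for root hydrotropism. The site shared by AT1G78265 and UGT85A4 (AT1G78270), a glycosyltransferase gene, had 2.45 and 2.38. At AT1G51645 and AT1G78265 the replicate 2 summit lay outside the lncRNA gene, 73 and 834 bp from the replicate 1 summit. Across all 20 best-ranked sites of both classes the lowest fold was 2.28 in replicate 1 and 2.33 in replicate 2.

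**Figure D1:**
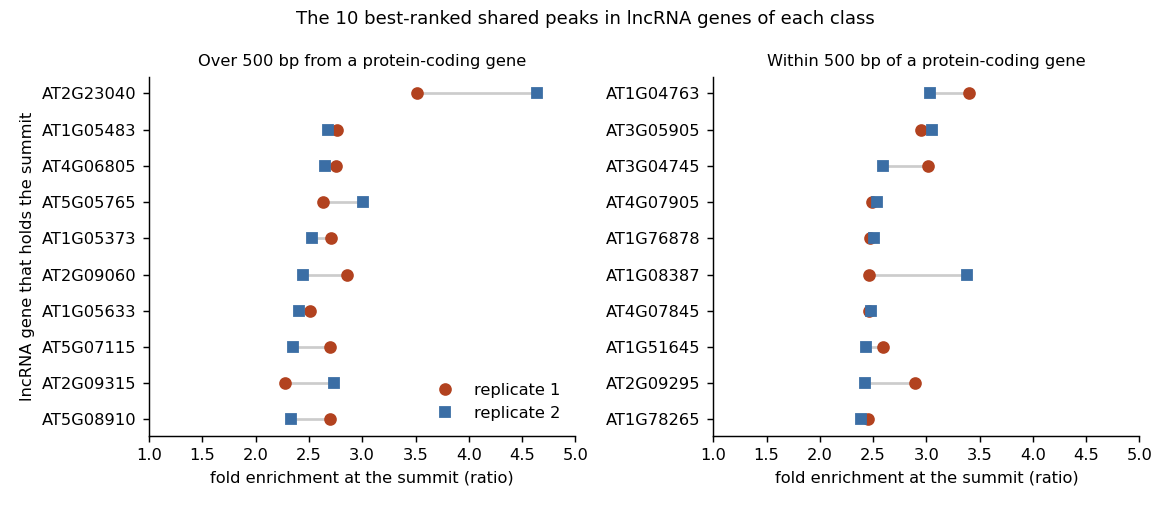
Fold enrichment at the summit (x axis, ratio) of the 10 best-ranked shared peaks in lncRNA genes over 500 bp from a protein-coding gene (left) and within 500 bp of one (right), with circles for replicate 1 and squares for replicate 2. The site in AT2G23040 stands apart at 3.51 and 4.64.

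By median fold, the sites in lncRNA genes were about as enriched as other shared peaks. A smaller share of the near sites reached a fold of 2 in both replicates. Their median fold was 2.03 in replicate 1 (quartiles 1.75 and 2.33) and 2.03 in replicate 2 (1.87 and 2.22), against 2.08 (1.81 and 2.40) and 2.03 (1.85 and 2.26) in the 10504 other shared peaks. Sites near and far from protein-coding genes had medians of 2.04 and 2.02 in replicate 1 and 2.01 and 2.03 in replicate 2, so the classes differed by less than the quartiles within either. Folds of at least 2 in both replicates were found in 43 of the 160 near sites (26.9%, 20.6 to 34.2) and 50 of the 148 far sites (33.8%, 26.7 to 41.7), where 36.3% of all shared peaks had them. With each site judged by its best overlapping replicate 2 peak, a −log10 q of 5 or more in both lists was reached by 42 near sites (26.2%, 20.05 to 33.6) and 41 far sites (27.7%, 21.1 to 35.4), against 31.4% of all shared peaks.

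Within the 308 sites the folds of the replicates followed each other weakly, with a Spearman correlation of 0.209 across sites, which share the same 2 libraries, against 0.340 in the other shared peaks. The fold was higher in replicate 2 at 152 sites. A fold of at least 3 was listed for 11 sites in replicate 1 and for 5 in replicate 2. The order of single sites below the best few therefore rests on which replicate is read.

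**Figure D2:**
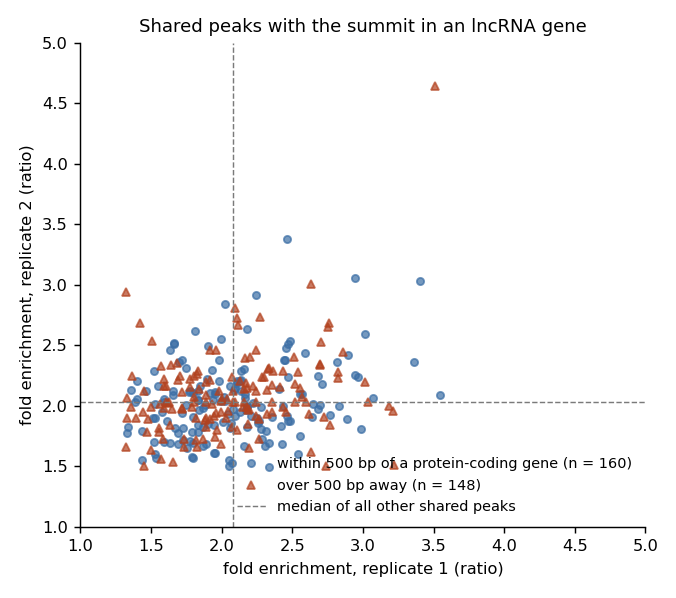
Fold enrichment of the 308 sites in replicate 1 (x axis, ratio) and replicate 2 (y axis, ratio), with circles for the 160 sites within 500 bp of a protein-coding gene, triangles for the 148 farther away and dashed lines at the medians of the other shared peaks, 2.08 and 2.03. Circles and triangles overlap over nearly the whole range, and the single triangle at the top is the site in AT2G23040.

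The share of peaks found again in the other replicate was close to that of peaks at large. Of 704 replicate 1 peaks with the summit in an lncRNA gene, 43.8% (40.1 to 47.4) were shared, where 42.0% of all replicate 1 peaks were, and of 378 such replicate 2 peaks 91.8% (88.6 to 94.2) were found in replicate 1, where 88.9% of all replicate 2 peaks were. The 396 unshared peaks of replicate 1 in lncRNA genes had a lower median fold of 1.66. In 232 of the 308 sites (75.3%, 70.2 to 79.8) the summit of the matching replicate 2 peak lay inside the same lncRNA gene, and the summits of the replicates were a median of 71 bp apart, against 69 bp in the other shared peaks. This was so for 129 of the 160 near sites (80.6%, 73.8 to 86.0) and 103 of the 148 far sites (69.6%, 61.8 to 76.4).

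The genes are short beside the peaks. The lncRNA genes ranged from 200 to 9515 bp, with 343 bp as the median length, while the replicate 1 peaks at these sites had a median width of 623 bp. In 148 of the 308 sites (48.1%, 42.5 to 53.6) the replicate 1 peak covered an lncRNA gene from end to end. At the edges of the rule, the least overlapping member was in AT5G02955, with 53.5% of the shorter peak and folds of 1.33 and 1.9004, and the closest peak left out was in AT5G03668, with 48.3% and folds of 1.92 and 1.79. The site that lay farthest from a protein-coding gene among the near ones was 499 bp away, in AT3G04505, and the closest of the far ones 504 bp away, in AT3G07295.

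The next question was how often lncRNA genes held a shared summit. They did so in 335 of 3480 cases (9.63%, 8.69 to 10.7), where 15.3% of protein-coding genes of all lengths did (4198 of 27444) and 12.4% of nuclear genes of all classes. Protein-coding genes are much longer, with a median of 2078 bp. When their share was weighted to the lengths of the lncRNA genes in 20 bins, it came to 3.18%, which puts the share of lncRNA genes over that of protein-coding genes of the same length at 3.03. Without the weighting the ratio was 0.629, so its direction rests on the length matching. Short protein-coding genes are few, and the smallest bin had 12.

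The shares stood apart in short genes. From 200 to 299 bp, 92 of 1351 lncRNA genes held a summit (6.81%, 5.59 to 8.28) against 3 of 226 protein-coding genes (1.33%, 0.452 to 3.83). From 500 to 749 bp 45 of 431 lncRNA genes did (10.4%, 7.90 to 13.7) against 34 of 1360 protein-coding genes (interval 1.79 to 3.47%). Between 750 and 999 bp the intervals met, with 8.97% (5.31 to 14.7) and 6.74% (5.67 to 8.002). Among genes of 1000 bp or longer, 53 of 318 lncRNA genes held a summit (16.7%, 13.0 to 21.2), where protein-coding genes of the same length gave 14.9%, a ratio of 1.12. Below 1000 bp the ratio was 4.76.

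**Figure D3:**
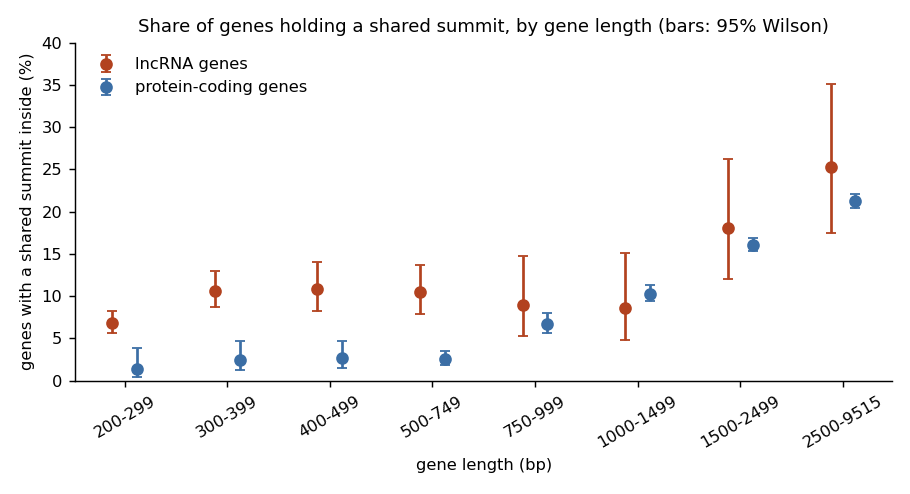
Share of genes with a shared summit inside (y axis, %) by gene length (x axis, bp) for lncRNA genes and protein-coding genes, with 95% Wilson intervals as bars. The points lie apart up to 749 bp and their intervals overlap from 750 bp on.

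In 5 coarse bins of length, the ratio was near 1 for lncRNA genes that overlap a protein-coding gene and higher for the others. The 1421 lncRNA genes whose span overlaps a protein-coding gene held a shared summit in 8.23% of cases (6.91 to 9.78). Protein-coding genes that overlap another, weighted toward these lengths in 5 bins, did in 8.34%, a ratio of 0.987. The 711 lncRNA genes 1 to 500 bp from a protein-coding gene did so in 12.1% (9.90 to 14.7) against 4.57%, a ratio of 2.65. The 1348 lncRNA genes over 500 bp away did so in 9.79% (8.32 to 11.5) against 3.07% of protein-coding genes equally far from any other, a ratio of 3.19. This split and the split by length were chosen after the data had been seen. Matching in 5 bins is coarse, since the bins are quantiles of the lncRNA lengths and the last reaches 9515 bp. Protein-coding genes crowd toward its long end, where more of them hold a summit. For all lncRNA genes the ratio was 3.03 in 20 bins and 2.72 in 10. The ratios of the classes can therefore be too low, and finer bins were not tried for them.

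Overlapping lncRNA genes differed among themselves by how they lie. Of 902 that lie wholly within a protein-coding gene 34 held a shared summit (3.77%, 2.71 to 5.22), while 62 of 426 lying over one end of a protein-coding gene did (14.6%, 11.5 to 18.2). Of 93 that span a whole protein-coding gene 21 did (22.6%, 15.3 to 32.1), and these are long, with a median of 2435 bp. The 70 sites inside both an lncRNA and a protein-coding gene lay within 500 bp of an end of the latter in 56 cases (80.0%, 69.2 to 87.7). This was 86.9% (85.9 to 87.9) among the 4394 other shared peaks inside protein-coding genes, so these sites too sat mostly toward the ends of the coding gene.

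Summits within 500 bp of a protein-coding gene made up 51.9% of the 308 (46.4 to 57.5), against 77.7% of all shared peaks. The split depends on the window, with 118 of the 308 sites near at 250 bp and 234 at 1000 bp. In all, 70 were inside a protein-coding gene (22.7%, 18.4 to 27.7), 90 lay 1 to 500 bp outside one (29.2%, 24.4 to 34.5) and 148 farther off (48.1%, 42.5 to 53.6). Of the 148 far sites, 74 were over 1000 bp (50.0%) and 30 over 2000 bp away (20.3%). In no annotated gene, 2212 shared summits were over 500 bp away. Of these, 910 lay at 501 to 1000 bp, 806 at 1001 to 2000 bp, 460 at 2001 to 5000 bp and 36 beyond. The most remote was in AT2G05665, on chromosome 2 from 4871420 to 4871718, 18589 bp from the nearest protein-coding gene, with folds of 1.51 and 2.54.

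Some far sites were close to genes of other classes, but other far shared peaks were not counted in this way. Within 500 bp of the summit 15 of the 148 (10.1%, 6.24 to 16.0) had an annotated gene that was neither lncRNA nor protein-coding. The class misc_RNA was found at 5, microRNA genes at 3, small nucleolar RNA genes and the class ncRNA at 2 each, and transfer RNA genes, small nuclear RNA genes and pseudogenes at 1 each. Of the 14 lncRNA genes that overlap a microRNA gene 1 held a shared summit, AT4G39838 with MIR5658. Of the 25 that overlap a small nucleolar RNA gene 3 did. Of the 10 that overlap a small nuclear RNA gene 2 did, which share a peak, and of the 2 that overlap a transfer RNA gene 0 did. Among all lncRNA genes the share was 9.63%, so these small counts set no class apart.

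More than 250 bp outside protein-coding genes, summits were denser inside lncRNA genes than in sequence with no annotated gene at the same distance from a protein-coding gene. Over 500 bp from protein-coding genes, lncRNA genes cover 0.605 Mb and held 148 shared summits, or 245 per Mb (95% Poisson interval 207 to 287). Sequence without any annotated gene covers 27.7 Mb there and held 2212, or 79.8 per Mb (76.5 to 83.2), which gives a ratio of 3.07. At 501 to 1000 bp the densities were 311 (244 to 390) and 119 (111 to 127) per Mb, at 1001 to 2000 bp 220.4 (160.1 to 296) and 108 (101 to 116), and at 2001 to 5000 bp 241 (159 to 350.1) and 79.9 (72.8 to 87.6). The density in lncRNA genes was higher in each of these classes, by ratios of 2.61, 2.03 and 3.01. Beyond 5000 bp summits were few in both, with 3 in 0.0550 Mb of lncRNA genes (54.6 per Mb, 11.3 to 160) and 36 in 6.88 Mb of unannotated sequence (5.23, 3.66 to 7.24). Without that stretch, from 501 to 5000 bp, the densities were 264 (222 to 310.2) and 104 (100.1 to 109) per Mb, a ratio of 2.52.

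Close to protein-coding genes the densities were about equal. Within 250 bp the densities were 330.0 per Mb in lncRNA genes (243 to 438) and 332 in unannotated sequence (320 to 344), a ratio of 0.995, while from 251 to 500 bp they were 303 (219 to 410.0) and 128 (119 to 137). Inside protein-coding genes, stretches that are also lncRNA gene held 76.6 summits per Mb (59.7 to 96.8) and the rest 69.1 (67.0 to 71.1). From 251 to 5000 bp unannotated sequence held fewer summits per Mb than within 250 bp, by a larger factor than lncRNA genes did. Gene density and sequence make-up were not matched in this comparison.

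The same held in each immunoprecipitate by itself. Over 500 bp from protein-coding genes, replicate 1 had 509 summits per Mb inside lncRNA genes (454 to 569) and 176 in unannotated sequence (171 to 181), a ratio of 2.89. Replicate 2 had 289 (248 to 335) and 109 (106 to 113), a ratio of 2.65. From 501 to 5000 bp the ratios were 2.39 and 2.13. Within 250 bp the ratios were 1.13 and 1.08. Both lists thus gave a higher density in lncRNA genes away from protein-coding genes and overlapping intervals beside them in replicate 1 and replicate 2.

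**Figure D4:**
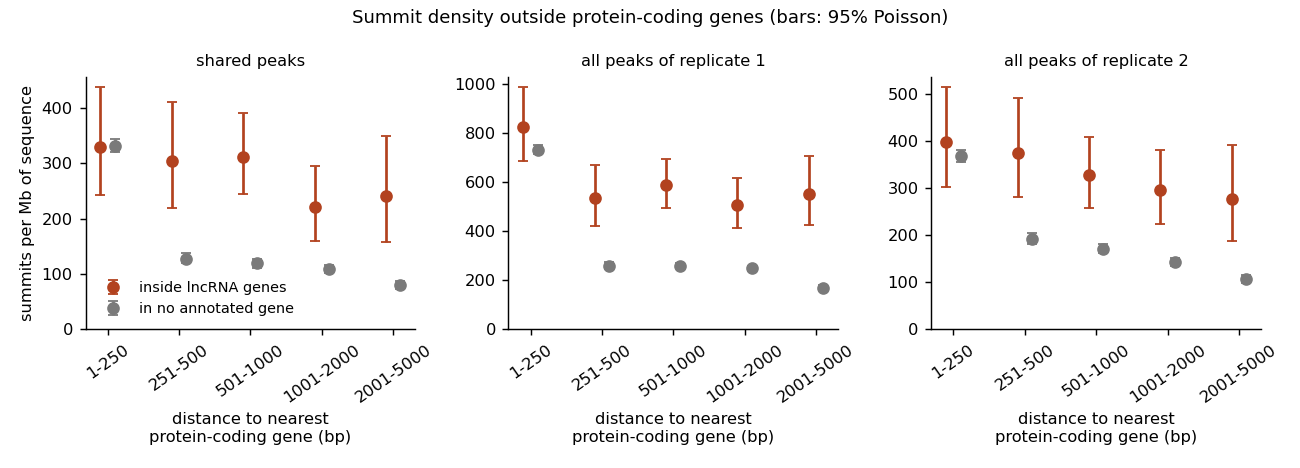
Summits per Mb (y axis) inside lncRNA genes and in sequence with no annotated gene, by distance to the nearest protein-coding gene (x axis, bp), for shared peaks and for all peaks of each replicate, with 95% Poisson intervals as bars. Up to 5000 bp, where the plot ends, the density for shared peaks lies at 220.4 to 330.0 per Mb inside lncRNA genes and goes from 332 to 79.9 in unannotated sequence.

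Away from protein-coding genes, shared summits were denser inside lncRNA genes than in the sequence around them. In sequence over 500 bp from protein-coding genes and outside genes of other classes, the density of shared summits was 260.1 per Mb inside lncRNA genes (219 to 306). It was 146 (103 to 201) at 1 to 100 bp outside them and 49.6 (25.6 to 86.6) at 101 to 200 bp. From 201 bp on up to 1500 bp it lay between 78.5 and 155 per Mb. Replicate 1 alone went from 529 inside to 157 at 101 to 200 bp, and replicate 2 alone from 306 to 124. The drop over the first 200 bp was thus present in both. Farther out both rose again, with up to 362 per Mb at 1301 to 1400 bp in replicate 1. Replicate 2 reached up to 187 at 801 to 900 bp, so both stayed below their values inside.

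**Figure D5:**
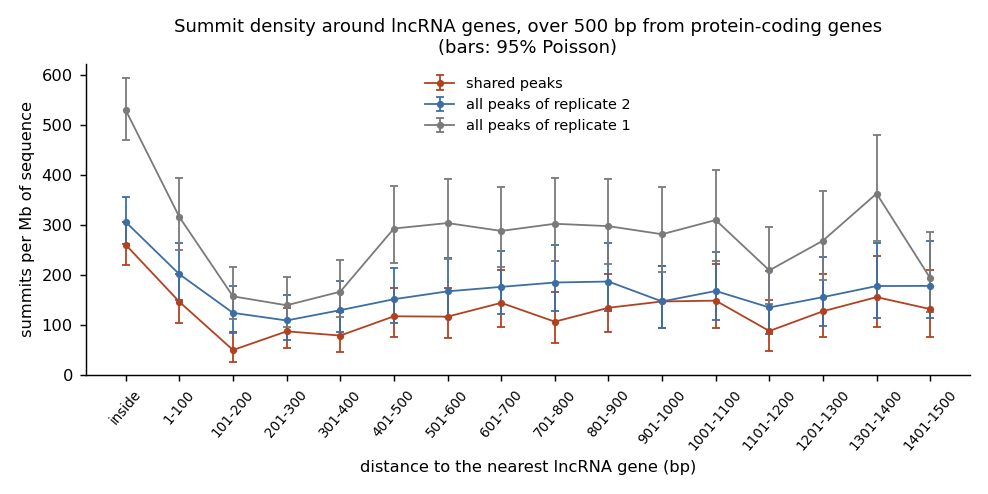
Summits per Mb (y axis) by distance to the nearest lncRNA gene (x axis, bp, in steps of 100), in sequence over 500 bp from protein-coding genes, for shared peaks and for all peaks of each replicate, with 95% Poisson intervals as bars. All 3 lines are highest inside lncRNA genes, where shared peaks reach 260.1 per Mb, and low from 101 to 400 bp.

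Along short and middle-sized lncRNA genes, the middle of the gene held close to an equal share of the summits, and the ends of short ones held less. In lncRNA genes of 200 to 499 bp the middle 40% of the gene held 100 of 225 summits (44.4%, 38.1 to 51.0), against 10 of 23 (43.5%, 25.6 to 63.2) in protein-coding genes of that length. The outer 10% at both ends together, which make 20% of the gene, held 14.2% (10.3 to 19.4) and 13.0% (4.54 to 32.1), with wide intervals for the few protein-coding summits. In lncRNA genes of 500 to 999 bp the middle held 26 of 58 (44.8%, 32.7 to 57.5), against 20 of 158 (12.7%, 8.35 to 18.7) in protein-coding genes of that length. The outer 10% at both ends then held 24.1% (15.0 to 36.5) and 41.8% (34.4 to 49.6). From 1000 bp on the outer ends held 27 of 54 summits in lncRNA genes (50.0%, 37.1 to 62.9) and 70.8% (69.5 to 72.2) in protein-coding genes, both above the equal share of 20%.

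Genes that hold a site were somewhat longer, and 73 of the 335 overlap another lncRNA gene. The median length was 391 bp in the 335 genes with a shared summit and 337 bp in the other 3145. Of 521 lncRNA genes that overlap another lncRNA gene 73 held a shared summit (14.0%, 11.3 to 17.3), against 262 of 2959 that do not (8.85%, 7.88 to 9.93). Over 500 bp from protein-coding genes the shares were 13.6% (10.5 to 17.5) and 8.37% (6.79 to 10.3), with median lengths of 347.5 and 311 bp. Overlapping genes count the same peak more than once, and merged into 3218 stretches the lncRNA genes held a shared summit in 306 (9.51%, 8.54 to 10.6). By chromosome the share ran from 7.41% (5.44 to 10.0) on chromosome 4 to 12.7% (10.4 to 15.4) on chromosome 5.

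Long non-coding RNAs with a studied function were mostly outside the class lncRNA. Of 23 such RNAs listed for this comparison 17 could be placed by locus. The reference table gives the class lncRNA to 2 of them, FLORE and COOLAIR, the class ncRNA to 11, among them ELENA1, ASCO, DRIR and the precursors of trans-acting small RNAs, the class misc_RNA to MARS, and calls IPS1, AT4 and APOLO protein-coding. A shared summit lay inside 1 of the 17, where it did in 12.4% of all nuclear genes, and inside or within 500 bp of 5, where it did in 29.0%. No peak of either replicate lay within 500 bp of 8 of them. Those 8 were IPS1, ELENA1, an elicitor-induced RNA that raises PR1 expression, the auxin-induced chromatin RNA APOLO, ASCO, DRIR, MARS, TAS3B and TAS3C.

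The one with a shared summit inside was AT4 (AT5G03545), a relative of IPS1 that binds the same microRNA of phosphate starvation. It held a peak on chromosome 5 from 895082 to 895968 with 3.21 in replicate 1 and 1.53 in replicate 2, and had another 221 bp outside the gene with 2.46 and 1.95. FLORE (AT1G69572), the circadian antisense RNA of CDF5 (AT1G69570), had no summit inside and a shared peak 233 bp outside it with 1.93 and 2.55. COOLAIR (AT5G01675), of 6230 bp, had 1 peak of replicate 1 at 64 bp outside it with 1.80 and none of replicate 2. Neither of the 2 genes of the class lncRNA therefore belonged to the 335.

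Of the trans-acting small RNA precursors, TAS1B, TAS2 and TAS3 had a shared peak within 500 bp and none inside by the replicate 1 summit. The peak at TAS1B had 2.14 in replicate 1 with its summit 45 bp outside the gene, and 1.72 in replicate 2, whose own summit lay inside. TAS2 had 2.55 and 1.96 at 305 bp. TAS3, the precursor of small RNAs against auxin response factor genes, had 1.97 and 1.95 at 152 bp, and another replicate 1 peak of 1.93 at 189 bp outside it. TAS1A and TAS4 had peaks of replicate 1 outside the gene only, and TAS1C had 2 replicate 1 peaks inside, of 1.56 and 1.63, with no replicate 2 peak.

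Some of the longest lncRNA genes held no site. Among the 5 longest lncRNA genes without a shared summit, AT2G24755, of 7767 bp, had no peak of either replicate inside or within 500 bp. AT1G28715, of 7116 bp, had a shared peak whose replicate 1 summit was 38 bp outside it, with 1.33 and 3.53. AT1G44125, of 6588 bp, and COOLAIR had 1 replicate 1 peak outside the gene each, and AT3G56408, of 6031 bp, had 1 inside. The longest lncRNA gene, of 9515 bp, was among the 335 genes with a shared summit.

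The sites that follow are single examples, picked by hand for well-known neighbouring genes after their values had been seen. Such neighbours were not counted among the 308 sites or among other shared peaks, so the examples say nothing of how common they are. AT5G02045 held a site, on chromosome 5 from 4218616 to 4219022, that was also inside JAZ10 (AT5G13220), a jasmonate repressor gene, with folds of 1.95 and 2.10. AT1G09307 held one 346 bp from JAZ6 (AT1G72450) with 1.59 and 2.05. AT2G09530 held one, on chromosome 2 from 18368327 to 18370192, 1148 bp from PEN2 (AT2G44490), a gene of defence against fungal entry, with 1.79 and 1.99. The replicate 2 summit lay inside the lncRNA gene at JAZ10 and outside it at JAZ6 and PEN2.

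AT4G26095, of 3419 bp, shared a site with the bacterial resistance gene RPS2 (AT4G26090), with 2.05 and 1.501. AT4G07385 held one 111 bp from DREB1A (AT4G25480), a cold response factor gene, on chromosome 4 from 13017696 to 13018225, with 2.46 and 1.92. AT2G08935 held one 264 bp from the auxin carrier gene AUX1 (AT2G38120) with 2.16 and 2.301. AT5G08715 held one 464 bp from TCH4 (AT5G57560), a cell wall enzyme gene induced by touch, with 2.14 and 2.12. The replicate 2 summit lay inside the lncRNA gene at DREB1A and TCH4 and outside it at RPS2 and AUX1. These folds lay within the range of the 308 sites, whose lowest and highest values were 1.32 and 3.55 in replicate 1 and 1.49 and 4.64 in replicate 2.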

How the data were processed

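Per the labels' protocols, chromatin of 14-day-old seedlings was crosslinked, sonicated and precipitated with an antibody against GFP. The submitters' processing notes name the build TAIR10 and the tools MACS2 2.2.7.1, SAMtools 1.9, Bowtie2 2.3.5 and Trimmomatic 0.38; their roles, settings and the use of the input are not given in the sources used here. The authors called peaks per sample. The deposited fold enrichment is a ratio, the deposited p-value and q-value columns are −log10 values, and the deposited score is a whole number made from q.

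Genes, classes and spans came from a RefSeq gene table of TAIR10.1 with 37899 nuclear genes, used for names and for which genes neighbour which; none of its coordinates is printed. Shared summits moved in steps of 50 bp fell inside protein-coding genes least often at 0 (41.3%), so peaks and table are in register. Computation used Python 3.11.15 with pandas 2.3.3 and scipy 1.17.1, tested on simulated data. The shares have 95% Wilson intervals. By rule, the text names the 10 best-ranked sites of each class, genes with several sites, the 5 longest genes without and the listed known RNAs. The sites at the edges of the rule, the most remote site, the gene with a microRNA and the 7 sites beside JAZ10, JAZ6, PEN2, RPS2, DREB1A, AUX1 and TCH4 were chosen after their values were seen. Members and lists were chosen with earlier results of these data known. Alternatives varied the overlap, the q limit, the summit used, the window, the bins and the genes compared.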

Additional observations from a re-analysis of the deposited data

How the results depend on the processing

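The median fold of the sites in lncRNA genes kept within the spread between replicates in all 7 alternatives. The number of sites, 308, moved to 125 with an overlap of 50% of both peaks, 85 when peaks under a −log10 q of 5 were removed from both lists before matching and 193 with lncRNA genes that overlap no protein-coding gene, and the number within 500 bp of a protein-coding gene to 65, 43 and 49. Single replicates gave from 378 to 704 sites, from 203 to 396 of them near, and from 11.4% to 20.4% of lncRNA genes. The share of lncRNA genes, 9.63%, moved to 3.88% and 2.76% under the first 2 of these and to 7.24% when the replicate 2 summit had to lie in the same gene.

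The ratio to protein-coding genes of the same length, 3.03, was 3.12 with an overlap of 50% of both peaks and 2.86 with the q limit. It was 3.68 with both summits in the gene, 4.54 with lncRNA genes overlapping no protein-coding gene and 2.72 with 10 bins, and from 1.98 to 2.94 in single replicates. It fell below 1 without length matching (0.629) and in genes overlapping a protein-coding gene (0.987). Among alternatives chosen after seeing the data it was 4.76 below 1000 bp and 1.12 from 1000 bp on. By distance, in 5 coarse bins, it was 2.65 from 1 to 500 bp and 3.19 over 500 bp from a protein-coding gene. In genes overlapping a protein-coding gene the shares were about equal (0.987). The cause of these moves was not tested. No paired analysis was possible because the peak lists hold 1 group only. Weaker enrichment passes the authors' threshold at greater depth, and the depth is unknown.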
